A study of Rattus norvegicus with 4 samples.

Results

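Solute carriers are the membrane proteins that move sugars, amino acids, ions, metals, lactate, vitamins and metabolites into and out of cells and organelles. They were taken here as every probe set annotated with 1 symbol entry only, beginning with Slc and a digit, or with Slco. That gave 126 genes read by 188 probe sets, out of 4736 named genes read by 7006 probe sets. Of the 126 genes, 82 were read by 1 probe set and 44 by 2 to 5. They were grouped by substrate into sugars (10 genes), amino acids and peptides (20), ions and metals (31), monocarboxylates (6), and organic ions and vitamins (24). The mitochondrial Slc25 family (12) and neurotransmitters and related solutes (12) formed further groups, as did nucleosides and nucleotide sugars (7). Another 4 genes, for urea and fatty acids, were left over.

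The samples were whole rat testis on Affymetrix short-oligonucleotide arrays, 1 array per group and 4 in all. Every animal had been on a diet without vitamin A from 20 days of age, for 9 weeks. The groups were deficient testis without treatment (VAD, 0 h) and deficient testis 4, 8 and 24 h after retinol, so all of them share the deficient diet and no rat on a normal diet is among them. The labels do not state the strain, the retinol dose or how many animals stand behind an array. With 1 array per group no difference could be tested, so no p-value is given and a gene is counted where its change passed 2-fold. The deposited values are linear ratios per probe set whose denominator is not stated. They carry no signal level, so a transporter that is barely expressed in testis cannot be told from an abundant one, and levels of different genes cannot be compared. The tissue label could not be checked against markers for the same reason. A gene's value is the mean of the log2 ratios of its probe sets, and a change is the log2 difference from VAD, except where 2 treated arrays are compared. In whole testis, fewer cells of a type and less RNA per cell cannot be told apart.

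In the testis, nutrients reach the germ cells inside the tubules mainly through Sertoli cells, whose tight junctions close the tubule to blood. Sertoli cells take up glucose by Slc2 carriers, turn much of it into lactate and hand it to germ cells through Slc16 carriers. Zinc, iron, amino acid and carnitine carriers serve the same cells, and vitamin A deficiency leaves the tubules with Sertoli cells and early germ cells.

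Median values of the solute carriers lay close to VAD at each time, and a few genes passed 2-fold. The zinc exporter Slc30a1 was 3.90-fold higher at 24 h than in VAD, and the iron importer Slc11a2 was 2.02-fold lower. The prostaglandin carrier Slco2a1 was 2.12-fold higher at 8 h. Taken against 1 in place of VAD, Slc30a1 at 24 h and Slco2a1 at 8 h had log2 values of 0.83 and 0.80, short of 2-fold. With each array centred on its own median, Slc11a2 at 24 h was at -0.89, also short of it. Across the 126 genes the median change at 4, 8 and 24 h came to -0.02, -0.02 and -0.01, while the 4736 genes together gave -0.09, -0.12 and -0.12. At 24 h, 63 of the 126 solute carriers lay above VAD, and 40.0% of all genes did. The spread of changes at 24 h had an SD of 0.48 across solute carriers and 0.52 across all genes.

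**Figure D1:**
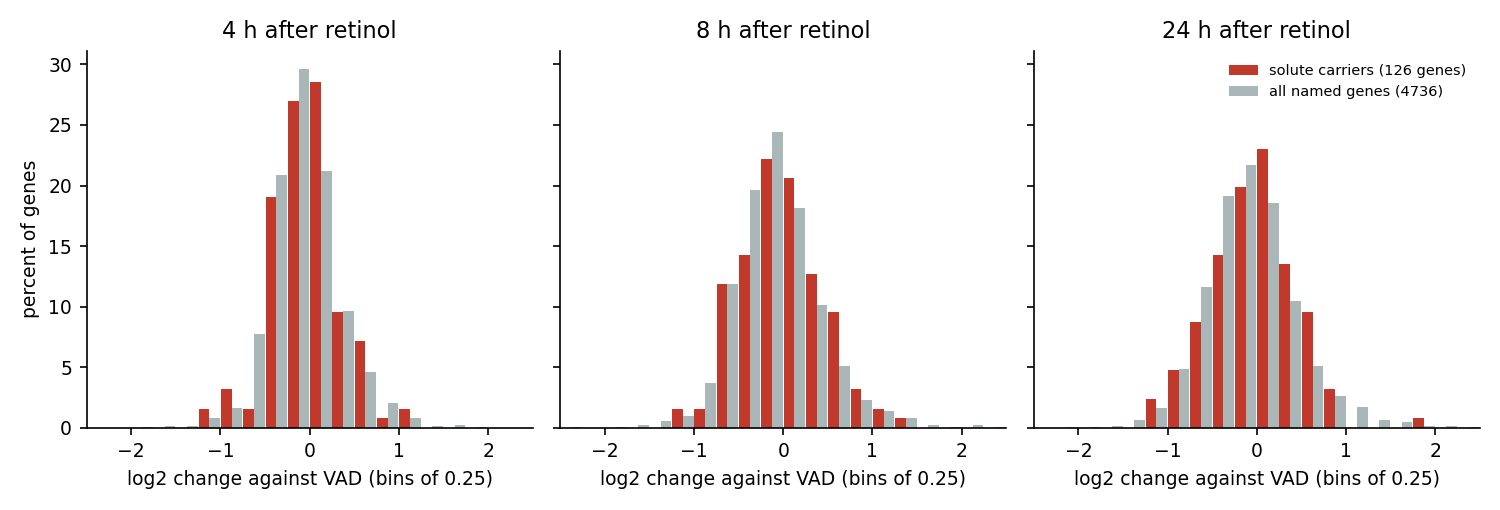
Percent of genes in each bin of log2 change against VAD, at 4, 8 and 24 h, for the 126 solute carriers (red) and all 4736 named genes (grey). Changes beyond 2.5 in either direction, which occur among all genes at each time, are outside the axis. The bulk of both sets lies within 1 of no change at each time.

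At 4 h, 2 solute carriers were at least 2-fold higher, Slco1a5 and Slco2b1, where 1.41% of all genes were. Another 2 were at least 2-fold lower, Slc13a1 and Slco1a1, where 1.25% of all genes were. At 8 h, 3 were higher (Slc30a1, Slco2a1 and Slc5a5, against 2.83% of all genes) and 2 lower (Slc16a6 and Slc37a1, against 1.88%). At 24 h, 1 was higher (Slc30a1, against 3.27%) and 3 were lower (Slc12a1, Slc25a30 and Slc11a2, against 2.64%). These counts are 1.59% and 1.59% of the 126 genes at 4 h, 2.38% and 1.59% at 8 h, and 0.794% and 2.38% at 24 h. Taken over all times, 12 solute carriers, or 9.52%, passed 2-fold at least once, against 8.51% of all genes. The share past 2-fold was near that of the background. Of these 12 genes 10 are read by 1 probe set, and none passed 2-fold at all 3 times.

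Past 1.5-fold, 5 solute carriers were higher at 4 h and 7 lower, or 3.97% and 5.56%, with backgrounds of 6.17% and 6.63%. At 8 h the numbers were 15 and 14, or 11.9% and 11.1%, beside 8.53% and 12.3% of all genes. At 24 h they were 11 and 14, or 8.73% and 11.1%, beside 8.99% and 14.1%.

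The arrays carry bacterial hybridisation spike-ins, which are normally added in fixed amounts, and they bear on the sign of small changes. Their 9 probe sets were all below VAD, with median changes of -0.55, -0.58 and -0.71 at 4, 8 and 24 h. Shifting the arrays on them would place 13, 23 and 30 solute carriers at least 2-fold higher and 0 lower at each time. That is 10.3%, 18.3% and 23.8% higher, beside 9.42%, 12.8% and 19.6% of all genes, with 0.232% of all genes lower at each time. Centring each array on its own median gave 2, 4 and 4 higher and 2, 1 and 2 lower. That is 1.59%, 3.17% and 3.17% higher, beside 1.96%, 3.74% and 4.29% of all genes. Lower were 1.59%, 0.794% and 1.59%, beside 0.866%, 1.22% and 1.69%. The 5′ control probe sets of the actin, GAPDH and hexokinase transcripts were also higher relative to the 3′ ones than in VAD, by 0.71, 1.09 and 1.01 as means of the transcripts, and where the solute carrier probe sets lie along their transcripts was not examined. Cell type markers shifted at the same times. The widest shift was in 3 epididymis markers, with medians of -0.32, -1.27 and -2.24 at 4, 8 and 24 h and 2 of the 3 past 2-fold lower at 8 h and at 24 h. Of all genes, 1.25%, 1.88% and 2.64% were past 2-fold lower at these times and 1.41%, 2.83% and 3.27% higher. The 7 spermatid markers had medians of 0.75, -0.37 and -0.57, and the 5 Leydig markers 0.19, 0.12 and -0.59, with 2 past 2-fold lower at 24 h. Of 5 leukocyte markers, 2 were past 2-fold higher at 24 h, the highest at 2.14, with a median of 0.27. Of 7 Sertoli markers, 2 were past 2-fold higher at 24 h, with medians of 0.43, 0.11 and 0.15. The 6 spermatocyte markers had medians of 0.50, -0.18 and -0.03, with 1 past 2-fold higher at 4 h. Medians of 3 endothelial markers were -0.22, 0.43 and 0.47, with 1 past 2-fold lower at each time. Peritubular markers had -0.40, -0.37 and -0.08 and erythroid ones -0.38, -0.06 and -0.12. Medians of 3 kidney markers, which include the solute carriers Slc12a1 and Slc5a2, were -0.17, -0.22 and -0.20. Of these markers, Slc12a1 was past 2-fold lower at 24 h. The part of these shifts in the changes below was not tested.

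Probe sets of the same gene often disagreed. Among the 35 solute carriers read from 2 or more database sequences, the SD of a change between sequences of a gene came to 0.39, 0.52 and 0.52 at 4, 8 and 24 h. A change of 1 in a gene read by 1 probe set is thus about as large as 2 of these SDs at 8 h and 24 h. This SD leaves out the spread between animals. In 21 of the 44 genes the 4 h values of all probe sets lay on one side of VAD, with 19 such genes for 8 h and 24 for 24 h. That is 47.7%, 43.2% and 54.5%, beside 49.0%, 48.8% and 49.5% of the 1565 genes with 2 or more probe sets. All probe sets passed 1.5-fold upward in 0 genes at 4 h, where the background was 0.831%. Downward they did so in 2 at 4 h, Slc24a2 and Slc35a1, where it was 0.958%. At 8 h this held upward for Slco2a1 (background 1.66%) and downward for Slc35a1 (2.75%). At 24 h it held upward for Slco2a1 again (1.92%) and downward for Slc11a2 (3.07%).

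**Figure D2:**
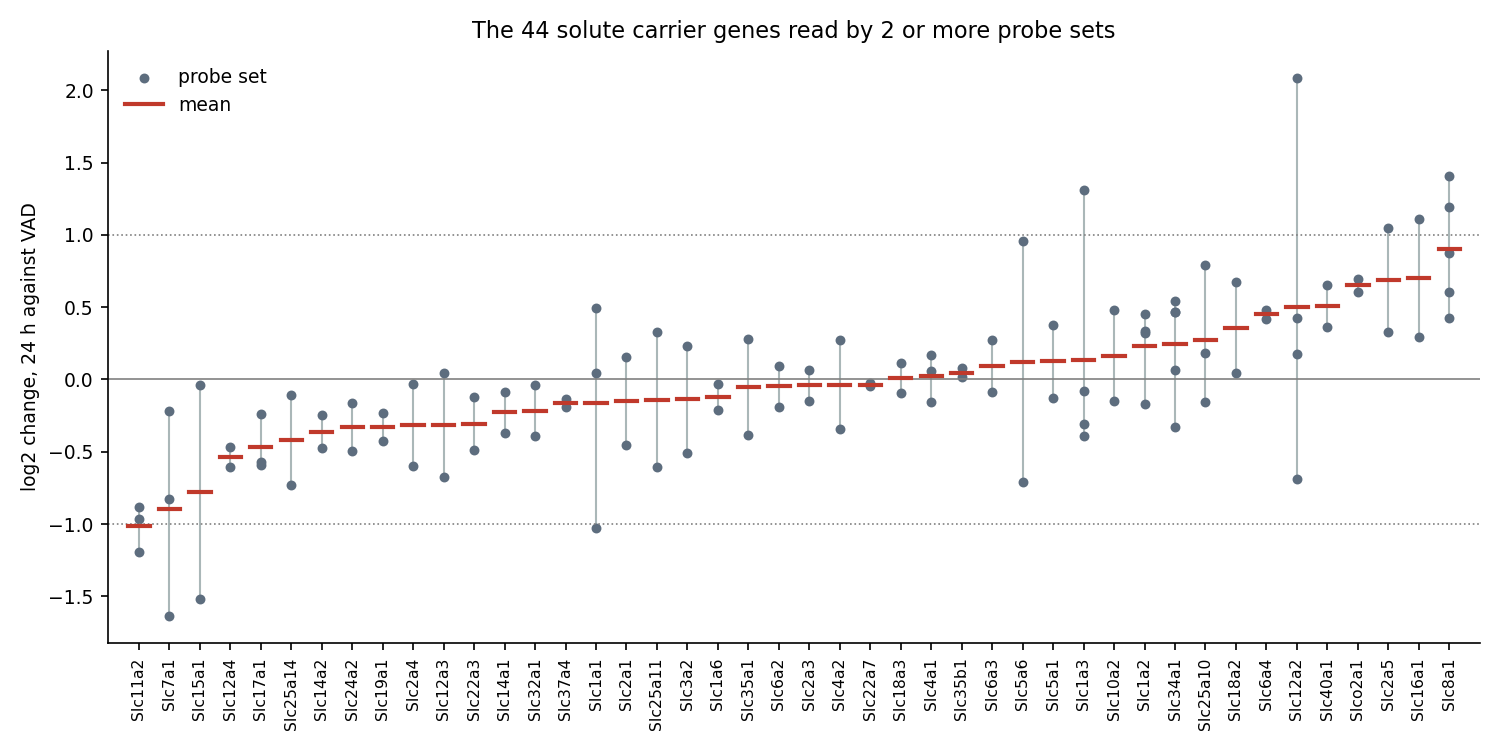
Log2 change at 24 h against VAD for each probe set (grey points) and their mean (red bar) in the 44 solute carrier genes with 2 or more probe sets, ordered by the mean. All 3 probe sets of Slc11a2 lie between -1.19 and -0.88 and all 5 of Slc8a1 between 0.42 and 1.41, while those of Slc12a2 run from -0.69 to 2.09.

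Promoter sequence is shown for 5 of the genes described next, picked after their values were seen. They are Slc30a1, the largest change, and 4 genes whose probe sets from different sequences all lay on one side of VAD at each time, Slco2a1 and Slc16a1 above and Slc11a2 and Slc7a1 below. Slc1a6, Slc2a4, Slc2a5, Slc6a4 and Slc12a4 also met that description and are not shown. Each is the stretch of 250 bases before the annotated gene start in RefSeq, build GRCr8, written 5′ to 3′ along the gene's own strand. Capitals mark a metal response element core, TGCACNC or its form TGCGCNC, or a half-site of the retinoic acid receptor. The half-sites searched were AGGTCA and its variant AGTTCA, and GGGTCA with its variant GGTTCA. Both strands were searched, so a match on the opposite strand appears as its reverse complement.
Slc30a1 (chr13:106021769-106022018, plus strand): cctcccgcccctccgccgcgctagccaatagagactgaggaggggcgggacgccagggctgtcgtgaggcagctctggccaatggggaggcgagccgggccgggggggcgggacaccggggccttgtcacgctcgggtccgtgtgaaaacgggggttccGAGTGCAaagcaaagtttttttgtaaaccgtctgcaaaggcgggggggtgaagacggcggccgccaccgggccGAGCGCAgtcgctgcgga
Slco2a1 (chr8:112467489-112467738, plus strand): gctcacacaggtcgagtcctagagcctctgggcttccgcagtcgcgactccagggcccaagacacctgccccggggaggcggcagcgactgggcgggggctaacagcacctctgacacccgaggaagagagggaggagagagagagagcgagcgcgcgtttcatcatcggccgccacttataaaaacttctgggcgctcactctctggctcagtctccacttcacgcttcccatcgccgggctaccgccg
Slc16a1 (chr2:194812410-194812659, plus strand): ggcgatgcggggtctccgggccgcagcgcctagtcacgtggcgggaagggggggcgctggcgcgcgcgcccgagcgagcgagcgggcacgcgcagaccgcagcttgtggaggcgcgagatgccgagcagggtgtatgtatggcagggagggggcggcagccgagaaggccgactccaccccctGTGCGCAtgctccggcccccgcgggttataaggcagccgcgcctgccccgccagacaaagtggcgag
Slc11a2 (chr7:133417789-133418038, minus strand): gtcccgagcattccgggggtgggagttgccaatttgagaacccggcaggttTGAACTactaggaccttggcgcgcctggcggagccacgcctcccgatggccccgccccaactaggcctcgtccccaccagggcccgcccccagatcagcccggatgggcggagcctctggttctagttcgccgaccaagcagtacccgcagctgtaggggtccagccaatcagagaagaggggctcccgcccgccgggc
Slc7a1 (chr12:11664238-11664487, plus strand): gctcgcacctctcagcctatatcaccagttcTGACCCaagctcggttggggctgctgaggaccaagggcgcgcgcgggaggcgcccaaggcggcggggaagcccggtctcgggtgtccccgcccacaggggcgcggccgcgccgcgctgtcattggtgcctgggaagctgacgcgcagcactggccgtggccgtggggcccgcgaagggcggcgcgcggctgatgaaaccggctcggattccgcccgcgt

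The Slc30a1 stretch held 2 metal response element cores, both on the opposite strand, at 91 to 85 and at 18 to 12 bases before the start. The stretches of the zinc carriers Slc30a2 and Slc30a4, not shown, also held 2 cores each. The Slc16a1 stretch held 1 at 67 to 61 bases before the start. The Slc11a2 and Slc7a1 stretches each held 1 receptor half-site on the opposite strand, at 199 to 194 and at 219 to 214 bases before the start, and the Slco2a1 stretch held no match to either motif. RefSeq promoters were matched by gene ID for 107 of the 126 genes. Of these, 33 (30.8%) held at least 1 metal core, beside 21.2% of all 27457 promoters, and 12 (11.2%) held 2 or more, beside 5.13%. A receptor half-site was in 48 (44.9%), beside 38.5%. No solute carrier stretch held 2 half-sites as a direct repeat with 5 or with 2 bases between them, beside 0.324% and 0.131% of all promoters. The 27457 promoters go beyond the 4736 named genes of the array and were not matched for GC content. A match is a match of letters only, and sites farther away were not searched.

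Among the zinc carriers, Slc30a1 (ZnT1) exports zinc across the plasma membrane and is a known target of the zinc-sensing factor MTF1. Its 1 probe set had ratios of 0.455, 0.772, 1.21 and 1.77 on the VAD, 4 h, 8 h and 24 h arrays. The value was higher at each successive time, with changes of 0.76, 1.41 and 1.96, the last of these the largest positive change of any solute carrier at 24 h. The VAD ratio of Slc30a1 was itself low, where 64.3% of the solute carriers had a VAD ratio within 10% of 1. Taken against 1 in place of the VAD array, Slc30a1 stood at -0.37, 0.28 and 0.83 and did not pass 2-fold. Slc30a4, which loads zinc into vesicles, went the other way, with ratios of 1.09, 0.882, 0.718 and 0.712 and a change of -0.62 at 24 h. Slc30a2, also a vesicular zinc carrier, stayed between 0.896 and 0.940 on all 4 arrays.

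The iron importer and the iron exporter lay on opposite sides of VAD at 24 h. Slc11a2 (DMT1) brings ferrous iron into the cytosol. Its mean ratios were 0.940, 0.709, 0.583 and 0.466 on the VAD, 4 h, 8 h and 24 h arrays. The changes were -0.41, -0.69 and -1.01, and each of the 3 probe sets, from 2 sequences, was lower on each later array. At 24 h they read -0.88, -0.97 and -1.19, an SD of 0.16. Shifted on the spike-ins the 24 h change would be -0.30 and would not pass 2-fold, and with the arrays centred it would be -0.89. Slc40a1 (ferroportin), which exports iron, had ratios of 0.978, 0.751, 0.844 and 1.39. Both of its probe sets, from 1 sequence, were below VAD at 4 h and above it at 24 h, by 0.36 and 0.65.

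Calcium, sodium and chloride carriers were mixed. Slc8a1 (NCX1) exchanges sodium for calcium at the plasma membrane. Its ratios were 0.967, 1.13, 1.48 and 1.81, with changes of 0.22, 0.61 and 0.90 (SD 0.41 between the 5 probe sets at 24 h). Its 5 probe sets come from 5 sequences and were all above VAD at 8 h and 24 h, while at 4 h they ran from -0.44 to 1.23. The brain form Slc8a2 stood at 0.58, 0.68 and 0.41 and Slc8a3 at 0.03, 0.10 and 0.16. Slc12a2 (NKCC1), a sodium, potassium and chloride importer that mice need for spermatogenesis, had 24 h probe set values of -0.69, 0.18, 0.42 and 2.09, a mean of 0.50 (SD 1.16). The potassium and chloride exporter Slc12a4 read alike in 2 sequences, with -0.60 and -0.47 at 24 h.

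Slc12a1 (NKCC2) and Slc13a1 (a sulfate carrier) are best known as kidney genes. Slc12a1 had ratios of 0.916, 0.470, 0.785 and 0.405, a change of -1.18 at 24 h, and Slc13a1 had 1.29, 0.548, 1.13 and 1.36, a change of -1.24 at 4 h. Neither value comes with a second probe set. The iodide importer Slc5a5, read by 1 probe set, was highest at 8 h, with ratios of 0.996, 1.43, 1.996 and 1.05. Its change at 8 h was 1.003, and its value was 0.997 when taken against 1. The sodium and calcium exchanger Slc24a2 had ratios of 0.948, 0.522, 1.13 and 0.754. Its probe sets were at -0.59 and -1.14 at 4 h, above VAD at 8 h, and at -0.50 and -0.16 at 24 h. In all, the ion and metal class had medians of 0.03, 0.10 and 0.08, with 20 of 31 genes above VAD at 24 h.

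**Figure D3:**
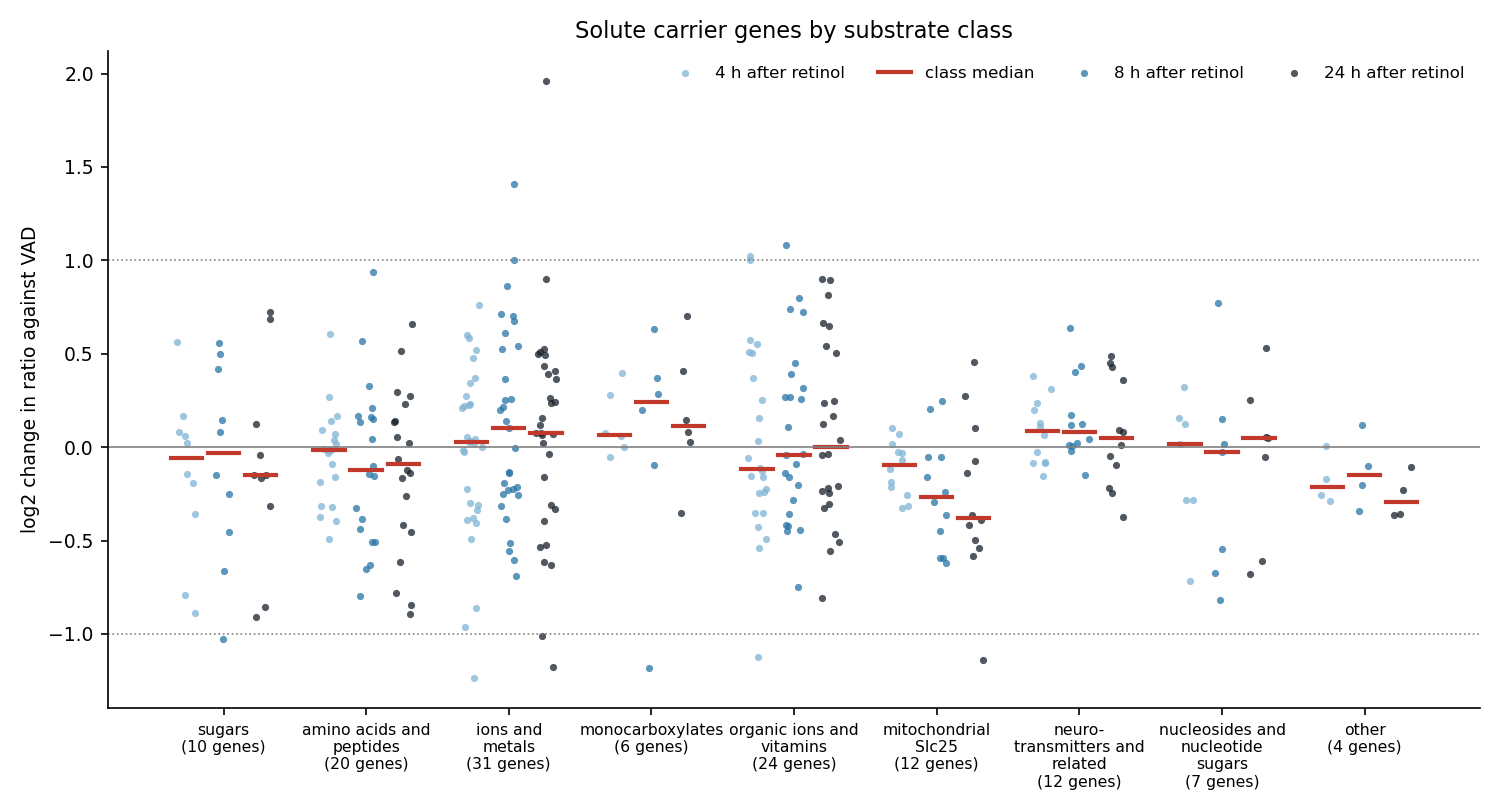
Log2 change against VAD of each of the 126 genes (points) by substrate class at 4, 8 and 24 h, with class medians (red) and 2-fold lines (dotted). The mitochondrial Slc25 medians are -0.09, -0.27 and -0.38, and the ion and metal class spans the widest range at 24 h, from -1.18 to 1.96.

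Of the 6 monocarboxylate carriers none was past 2-fold higher at any time, and Slc16a6 was past 2-fold lower at 8 h. Slc16a1 (MCT1), which carries lactate and pyruvate, had ratios of 1.06, 1.39, 1.64 and 1.72 on the VAD, 4 h, 8 h and 24 h arrays. Its change at 24 h was 0.70 (SD 0.57), from probe sets at 0.30 and 1.11, and both probe sets were above VAD at each time. Slc16a7 (MCT2), a carrier with high affinity for pyruvate, had 1.16, 1.40, 1.495 and 1.53, a change of 0.41 at 24 h. Slc16a3 (MCT4), the lactate exporter of glycolytic cells, stayed between 0.830 and 0.939, and the retinal form Slc16a8 between 0.772 and 0.885. The related carrier Slc16a6 had 0.954, 0.953, 0.421 and 0.748, with changes of -1.18 at 8 h and -0.35 at 24 h. The class medians were 0.07, 0.24 and 0.11 over 6 genes.

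The partners of these carriers lay below VAD at each time. So did 61.1%, 61.5% and 59.9% of all genes at 4, 8 and 24 h, with all-gene medians of -0.09, -0.12 and -0.12. Basigin (Bsg), the chaperone that brings Slc16a1 to the membrane, was at -0.10, -0.22 and -0.05, and embigin (Emb), the partner of Slc16a7, at -0.22, -0.44 and -0.11. Of the lactate dehydrogenases, Ldhb was at -0.35, -0.70 and -0.65 and the germ cell form Ldhc at 0.61, -0.51 and -0.70.

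Glucose carriers showed no change past 2-fold, and the sugar class had medians of -0.06, -0.03 and -0.15. Slc2a1 (GLUT1), the general glucose importer, had ratios of 0.957, 0.866, 0.805 and 0.865, with probe sets at -0.45 and 0.16 at 24 h. Slc2a3 (GLUT3), a high-affinity form found in germ cells, stayed between 0.976 and 1.06. The insulin-responsive Slc2a4 had 0.969, 0.757, 0.707 and 0.780, with both probe sets below VAD at each time. Slc2a5 (GLUT5), the fructose carrier, had 0.967, 1.09, 1.37 and 1.56, a change of 0.69 at 24 h, from probe sets at 0.33 and 1.05. The myo-inositol carrier Slc5a3, which works in osmotic balance, had 1.09, 1.61, 1.61 and 1.80, a change of 0.73. The liver and islet glucose carrier Slc2a2 stood at -0.89, -0.67 and -0.91, and the glucose-6-phosphate exchanger Slc37a1 at -0.79, -1.03 and -0.85. Slc37a4, the glucose-6-phosphate carrier of the endoplasmic reticulum, stayed between -0.19 and -0.15.

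Among amino acid carriers, the cationic amino acid importer Slc7a1 (CAT1) was the lowest at 24 h. Its mean ratios were 0.916, 0.651, 0.527 and 0.494, with changes of -0.49, -0.80 and -0.89 (SD 0.71 at 24 h). Its 3 probe sets, from 3 sequences, were all below VAD at each time but differed in size, with -1.63, -0.83 and -0.22 at 24 h. Its relatives Slc7a2 and Slc7a3 stood at 0.06 and 0.51 at 24 h. The large neutral amino acid carrier Slc7a5 (LAT1) had 0.961, 0.860, 0.677 and 0.627, a change of -0.62. The partner of Slc7a5, Slc3a2 (4F2hc), was at -0.14, with probe sets at -0.51 and 0.23. Slc3a1, the partner in cystine uptake, had 0.921, 1.40, 1.76 and 1.46.

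The neutral amino acid carrier Slc6a15 was lower on each later array, with 0.805, 0.621, 0.512 and 0.448. The proton-coupled peptide carriers Slc15a2 and Slc15a4 stood at -0.41 and -0.45 at 24 h. For Slc15a1, 1 probe set read -1.52 and the other -0.04. The glutamate carrier Slc1a3 (GLAST) had 1 probe set at 1.31 and the other 3 between -0.39 and -0.08, and a mean of 0.13. In the class as a whole, 9 of 20 genes were above VAD at 24 h, and the medians were -0.02, -0.12 and -0.09.

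Mitochondrial carriers were mostly below VAD, 9 of 12 at 4 h, 10 at 8 h and 9 at 24 h, where 61.1%, 61.5% and 59.9% of all genes were. The medians were -0.09, -0.27 and -0.38. The ADP/ATP carriers Slc25a4 and Slc25a5 exchange nucleotides across the inner membrane. Slc25a4 had 1.05, 0.840, 0.685 and 0.703, a change of -0.58 at 24 h. Slc25a5 had 0.995, 0.918, 0.812 and 0.758, a change of -0.39. The phosphate carrier Slc25a3 was at -0.50 and the citrate carrier Slc25a1, which supplies the cytosol with acetyl units, at -0.54.

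Slc25a30, a carrier first described in kidney, was the lowest of the Slc25 family at 24 h, with 1.11, 1.06, 0.739 and 0.505. The change was -1.14 at 24 h, and -0.99 against 1. The carnitine and acylcarnitine carrier Slc25a20 was at 0.02, 0.20 and 0.10, and the dicarboxylate carrier Slc25a10 at 0.27, from probe sets between -0.15 and 0.79. Shifting the arrays on the spike-ins moves every gene by the same amount, so the sign of a class median depends on it. The place of the Slc25 class below the median of all genes at 8 h and 24 h does not. At 4 h the median was -0.09 both in the class and across all genes.

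The 6 organic anion carriers of the Slco group are part of the organic ion and vitamin class of 24 genes, not a class of their own. Of the 6, 4 passed 2-fold at least once, in both directions, where 8.51% of all genes did. They are all the genes of that class past 2-fold, so the share among the 6 is no measure of the group. Of the 4, 3 are read by 1 probe set. Slco2a1 takes up prostaglandins. Its ratios were 0.822, 1.20, 1.74 and 1.29 on the VAD, 4 h, 8 h and 24 h arrays. Its 2 probe sets, from 2 sequences, read nearly the same each time, with 0.50 and 0.60 at 4 h, 1.05 and 1.12 at 8 h, and 0.61 and 0.69 at 24 h. Against 1 the 8 h value was 0.80. Slco2b1, which carries steroid sulfates, had 0.741, 1.49, 1.29 and 1.31, a change of 1.003 at 4 h and a value of 0.57 when taken against 1. Slco1a5, which carries bile acids and thyroid hormone, had 1.20, 2.45, 2.01 and 1.42, highest at 4 h. Slco1a1, a carrier of the same subfamily best known from liver, had 1.02, 0.467, 0.955 and 1.04, a change of -1.12 at 4 h. Slco1a3 and Slco1a4 stayed within 2-fold, at 0.50 and -0.22 at 24 h.

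The other organic ion and vitamin carriers lay within 2-fold of VAD at each time. The dicarboxylate carrier Slc13a3 had 1.11, 0.942, 1.34 and 2.07, a change of 0.90 at 24 h. The riboflavin carrier Slc52a3 had 1.03, 0.926, 1.35 and 1.92, also 0.90. The organic cation carrier Slc22a2 was at 0.67 and the carnitine importer Slc22a5 (OCTN2) at -0.56, with a ratio of 0.605 at 24 h against 0.891 in VAD. Medians of the class were -0.12, -0.04 and 0.00 at the 3 times, with 12 of 24 genes on each side of VAD at 24 h.

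Neurotransmitter and nucleotide carriers held no gene past 2-fold. The first of these classes had medians of 0.09, 0.08 and 0.05 over 12 genes, with 7, 10 and 7 of them above VAD at 4, 8 and 24 h, where 38.8%, 38.5% and 40.0% of all genes were. The nucleoside and nucleotide sugar class had 0.02, -0.03 and 0.05 over 7. The taurine carrier Slc6a6 had 0.893, 0.842, 1.21 and 1.25, a change of 0.49, and the creatine carrier Slc6a8 stayed between 0.927 and 1.03. Both probe sets of the serotonin carrier Slc6a4 were higher at each successive time, at 0.48 and 0.42 by 24 h. The GABA carrier Slc6a13 was 1.56 at 8 h and 0.773 at 24 h. Of the nucleoside carriers, Slc29a1 (ENT1) was at -0.68 at 24 h and Slc28a2 at 0.53. Slc35a1 carries CMP-sialic acid into the Golgi. It had ratios of 1.15, 0.699, 0.652 and 1.11, and both of its probe sets, from 2 sequences, were below VAD at 4 h and 8 h, with changes between -0.95 and -0.59. At 24 h they differed in sign, at -0.38 and 0.28. The urea carriers Slc14a1 and Slc14a2 and the fatty acid carriers Slc27a1 and Slc27a2 were all below VAD at 24 h, at -0.23, -0.36, -0.37 and -0.11.

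**Figure D4:**
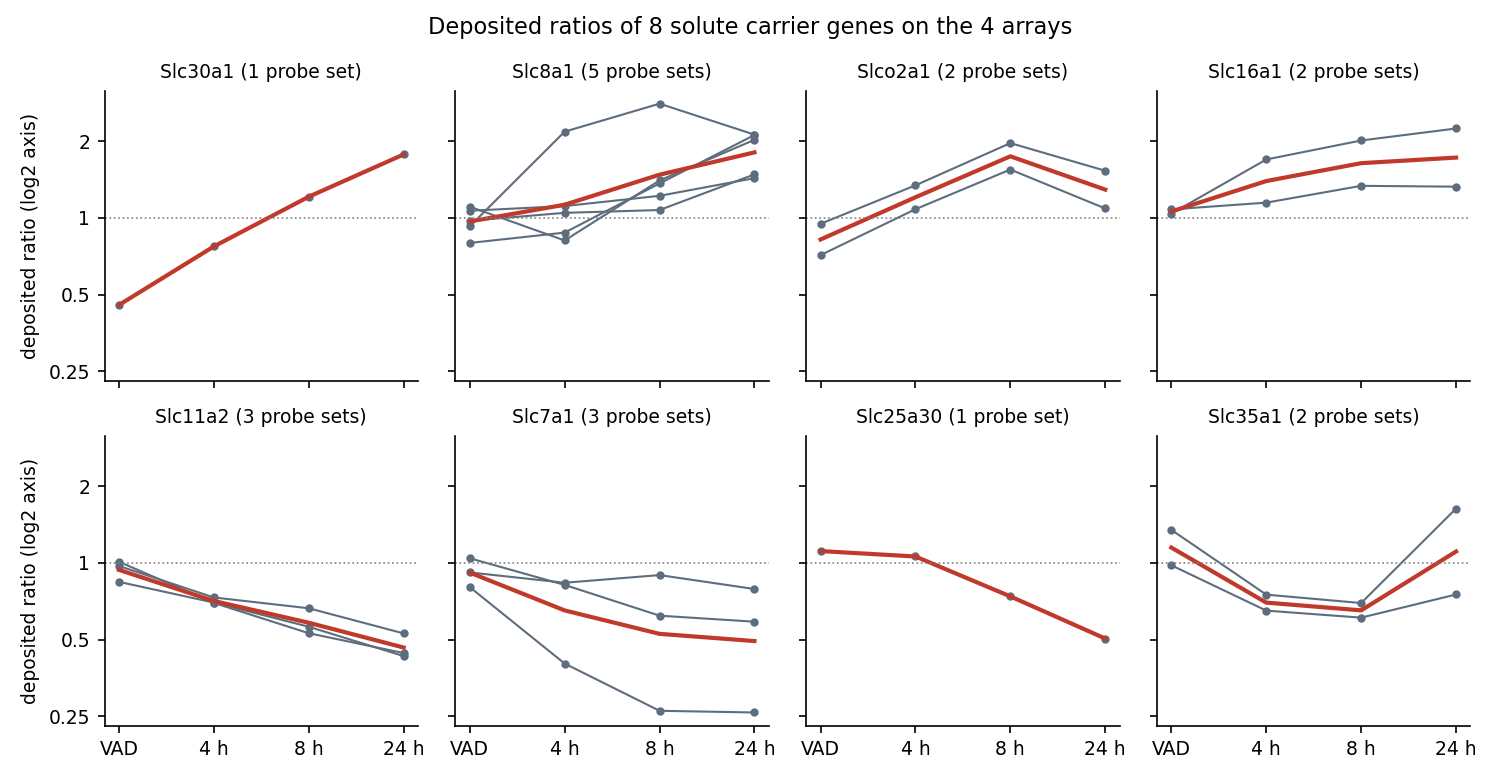
Deposited ratios on the 4 arrays (log2 axis) for 8 solute carrier genes, with each probe set in grey and the gene mean in red. The Slc30a1 line starts at 0.455 in VAD and ends at 1.77, the Slc11a2 probe sets end between 0.431 and 0.529, and the Slco2a1 probe sets peak at 8 h.

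Time courses were counted where they went one way at every step. Ratios were higher on each later array in 10 solute carriers, or 7.94%, against 7.75% of all genes. Besides Slc30a1, Slc8a1, Slc16a1, Slc16a7, Slc2a5 and Slc6a4 these were Slc20a2, Slc28a1, Slc6a7 and Slc8a3. Ratios were lower on each later array in 15, or 11.9%, against 15.9% of all genes. Among these were Slc11a2, Slc7a1, Slc7a5, Slc6a15, Slc25a3, Slc25a5, Slc25a30 and Slc29a1. Between the 8 h and 4 h arrays, Slc13a1, Slc24a2 and Slco1a1 were at least 2-fold higher at 8 h (0.718% of all genes were) and Slc16a6 was at least 2-fold lower (0.929%). Between the 24 h and 8 h arrays none was at least 2-fold higher (0.507%) and Slc6a13 was at least 2-fold lower (0.655%). All of these comparisons share arrays with those against VAD.

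Other transport genes were counted from lists of sodium pump subunits, which keep up the sodium gradient that many solute carriers use, ABC transporters, carbonic anhydrases and the lactate genes above. Of 26 measured, 2 were past 2-fold higher at 24 h and 1 lower, where 3.27% and 2.64% of all genes were. The sodium pump subunit Atp1b2 had ratios of 0.853, 1.37, 1.77 and 1.74, a change of 1.03, while Atp1b1 was at 0.27, Atp1b3 at -0.48 and the sperm form Atp1a4 at -0.54. The drug exporter Abcb1a had 1.09, 1.68, 2.65 and 3.25, a change of 1.57, and its close relative Abcb1b had 1.01, 0.501, 0.563 and 0.311, a change of -1.70. The sequences of these 2 genes are alike, and whether their probe sets cross-hybridise was not tested. None of 6 carbonic anhydrases, which serve bicarbonate transport, passed 2-fold, and Car2 was the highest at 24 h, at 0.65.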

How the data were processed

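The deposited table gives, per the labels' titles, normalized values for 4 arrays. The values are linear ratios per probe set, as the deposited numbers show. Per the submitters' processing notes the tools were GCOS and MAS5, with no version. What the ratios were divided by, how arrays were scaled and whether RNA was pooled is not stated. The table held 8799 probe sets, 59 of them controls. Of the rest, 7006 carried 1 symbol entry in the platform annotation, 308 several and 1426 were not listed. Symbols were updated through Entrez IDs where RefSeq (assembly GRCr8) lists them, as for 6985 probe sets. Log2 ratios were averaged over the probe sets of a gene. Counts used 2-fold, with 1.5-fold as an alternative. Alternatives also covered array scaling, the choice of probe set and the baseline. There is no depth to report for arrays, and their number limits the precision. No test between groups was possible.

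Substrate classes were assigned by carrier family. Genes named were those past 2-fold at any time, up to 3 highest and 3 lowest per class at 24 h, 35 transporters taken from knowledge of testis (24 measured) and those whose probe sets all passed 1.5-fold at any time. Of these 76, the text prints those picked with the values in view, beside a few relatives picked likewise. The members, lists and rules were chosen with earlier results of these data known. Calculations used Python 3.11.15 with pandas 2.3.3 and numpy 2.4.6, and were tested on simulated data.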

Additional observations from a re-analysis of the deposited data

How the results depend on the processing

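With 1 array per group nothing here was tested between animals, and signal over background is unknown. The numbers of solute carriers past 2-fold are small. Shifting the arrays on the spike-ins gave 13, 23 and 30 higher and 0, 0 and 0 lower at 4, 8 and 24 h, and medians of 0.53, 0.56 and 0.70. The higher counts are 10.3%, 18.3% and 23.8%, beside 9.42%, 12.8% and 19.6% of all genes, whose medians were 0.45, 0.47 and 0.59. Centring each array gave medians of 0.080, 0.091 and 0.11, 1 lower at 8 h and 4 higher at 24 h. These counts are 0.794% and 3.17%, beside 1.22% and 4.29% of all genes. Using for each gene the probe set of highest mean gave 4, 6 and 6 higher and medians of 0.0194, 0.043 and 0.060. Those counts are 3.17%, 4.76% and 4.76%, beside 2.79%, 5.05% and 5.87% of all genes. The median over probe sets gave 2 higher at 24 h, or 1.59%, beside 3.25% of all genes. Genes with 2 or more probe sets gave 0, 1 and 0 higher and 0, 0 and 1 lower, and a median of 0.015 at 8 h, with fewer genes counted. A count of 1 is 2.27% of these 44 solute carriers. Among all genes with 2 or more probe sets, 0.575%, 1.47% and 1.92% were higher and 0.256%, 0.511% and 1.21% lower. Past 1.5-fold there were 5, 15 and 11 higher and 7, 14 and 14 lower. Of all genes 6.17%, 8.53% and 8.99% were past 1.5-fold higher and 6.63%, 12.3% and 14.1% lower. Taken against 1, there were 1, 1 and 2 higher and 4, 3 and 5 lower at 4, 8 and 24 h. The medians were -0.0794, -0.0172 and -0.0334. The higher counts are 0.794%, 0.794% and 1.59%, beside 2.17%, 2.74% and 3.21% of all genes. The lower counts are 3.17%, 2.38% and 3.97%, beside 1.92%, 2.55% and 3.65%. The cause of these differences was not tested. Of the 26 other transport genes, 1 passed 2-fold at 24 h among those with 2 or more probe sets and 7 passed 1.5-fold. The shares of all genes are the 24 h values just given for these settings. Of the 9 substrate classes, 6 had a median above that of all genes at 24 h. Scaling moves every gene on an array by the same amount, so it could not change this count. Taken against 1 the count was also 6, and among genes with 2 or more probe sets it was 5. None of the 13 changes past 2-fold in named genes turned sign under the settings tried, and 11 stayed past 2-fold with centring, 6 with the spike-in shift, 13 with the median over probe sets, 12 with the highest probe set and 6 against 1. The last of these settings, for named genes, and all settings for the other transport genes and the classes were chosen after seeing the data. No paired analysis was possible because each group holds 1 array.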

Other observations

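Of the probe sets whose annotation holds several symbol entries, 2 name a solute carrier and were left out of every comparison. For 1 of them both entries are Slc25a51, the mitochondrial NAD carrier, so it was left out although it names 1 symbol. Its VAD, 4 h, 8 h and 24 h ratios were 1.11, 0.762, 0.847 and 0.764, with changes of -0.54, -0.39 and -0.54. The probe set shared by Slc13a2 and the mucin gene Muc3 had 1.02, 0.946, 0.964 and 1.08. The probe set read for Slc13a2 alone had 1.25, 0.860, 0.916 and 0.714, a change of -0.81 at 24 h, where the shared probe set was at 0.08.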
